A study of Mus musculus with 12 samples.

Results

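Islets of mice that lack the prolactin receptor were compared between pregnancy day 9.5 (P9.5) and the non-pregnant (NP) state. The comparison takes in 6 of the 12 arrays of the series: 3 of pregnant Prlr-/- mice and 3 of non-pregnant Prlr-/- mice, chosen by their labels, with all 35511 probe sets of the Affymetrix MoGene_1.0_ST array. The other 6 arrays hold islet RNA of Prlr+/+ mice, 3 non-pregnant and 3 at P9.5, and serve here as the reference response. All 4 groups are on the 129Sv strain, and the methods give an age of 13 to 20 weeks for mice of this line. Islets were isolated with collagenase, a procedure that leaves some exocrine tissue on the islets. Prlr-/- females are sterile, so those that became pregnant were given a 5 mg progesterone pellet at P0.5. In Prlr-/- mice the pellet and the pregnancy therefore cannot be told apart, and against pregnant Prlr+/+ mice the pellet and the genotype cannot be told apart. The labels call the 3 arrays of a group biological replicates and do not say whether islets of several mice were pooled.

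Pregnancy enlarges the insulin reserve of the mother. In the mouse, beta cells divide and secrete more at a lower glucose level, and both responses are driven largely by placental lactogen and prolactin acting on the prolactin receptor. The receptor works through the kinase JAK2 and the transcription factor STAT5, which switches on genes such as Cish and Socs2 that in turn restrain the signal. Other signals of pregnancy also reach the islet, among them progesterone, glucocorticoids, altered lipids and a higher demand for insulin. The comparison shows which transcripts differ between the 2 states when the receptor is missing.

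No probe set carries the symbol Prlr in the annotation used here, so the deletion was not checked on the targeted gene. The arrays hold islet RNA by their hormone genes. The insulin gene Ins2 was at 10.9, 10.9 and 11 on the log2 scale in the Prlr-/- NP arrays and at 10.9, 10.9 and 10.8 in the Prlr-/- P9.5 arrays. Glucagon (Gcg) lay between 13.7 and 13.9 in all 6 of them. Across probe sets, arrays correlated at 0.982 to 0.986 within Prlr-/- NP, at 0.979 to 0.986 within Prlr-/- P9.5 and at 0.931 to 0.962 between the 2 groups. 1 array of the series goes against the others of its kind: Xist, an RNA of the inactive X chromosome in females, was at 3.8 in Prlr+/+ P9.5 replicate 2, and at 10 to 10.7 in the 6 Prlr-/- arrays. That array enters only the values that involve Prlr+/+ islets and, in the common fit, the estimate of the spread.

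The 6 arrays also differ in their content of acinar RNA, which comes from the enzyme-secreting cells around the islets. The mean log2 level of 22 digestive enzymes was 11.2, 10.2 and 10.6 in the 3 Prlr-/- NP arrays and 10.3, 9.27 and 8.69 in the 3 Prlr-/- P9.5 arrays. NP replicate 1 was the richest and P9.5 replicate 3 the poorest, and P9.5 replicate 1 lay above NP replicate 2. In Prlr+/+ islets the same mean was 9.91, 10.5 and 10 in NP arrays and 9.49, 9.18 and 10.4 at P9.5. For this reason counts below are also given from a fit that holds this mean as a covariate. Its part in the other changes was not tested beyond that, and in RNA of whole islets fewer cells of a type and less RNA per cell cannot be told apart.

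Many transcripts of Prlr-/- islets differed between the pellet-treated P9.5 mice and the NP mice. To be called, a probe set needed a change of 1.5-fold or more and an adjusted p (Benjamini-Hochberg, all probe sets) under 0.05 in limma. By this rule 2641 probe sets rose (7.44%) and 2518 fell (7.09%) of 35511. Among 19938 genes, each taken by 1 probe set that names no other gene, 1566 rose (7.85%) and 610 fell (3.06%), while the median log2 fold change of all genes was -0.07. The values of the 3 NP and the 3 P9.5 arrays did not overlap in 2143 of the 2176 called genes, and in 8851 of all genes (44.4%). Without Prlr-/- P9.5 replicate 3, the array with the least acinar RNA, 1929 probe sets rose and 2146 fell. With the acinar mean as a covariate 1131 probe sets rose (3.18%) and 1505 fell (4.24%). Of the genes called at first, 722 of the 1566 that rose and 217 of the 610 that fell were still called with the covariate. No probe set was called in opposite directions by the 2 fits. A call can be lost with the covariate through a larger standard error as well as through a smaller change.

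The largest increases belonged to genes of diverse function. Hapln1, a link protein that ties hyaluronan to proteoglycans in the matrix, was at 6.9, 7.1 and 6.6 in NP islets and at 8.8, 8.6 and 8.8 at P9.5. The log2 fold change was 1.87, with a standard error of 0.218 and an adjusted p of 0.000179. Its lowest P9.5 value was well above its highest NP value. In Prlr+/+ islets the log2 fold change of Hapln1 was -0.07, and the difference between the genotypes was 1.93 with an adjusted p of 0.0531, so that it was not called. Elovl7, an enzyme that lengthens fatty acids, went from 5.9, 6.1 and 5.8 to 7.9, 7.3 and 8.0, and Wdr72 from 5.0, 4.8 and 4.8 to 6.7, 6.1 and 6.7. The log2 fold changes of these were 1.80 and 1.63, against 0.30 and -0.13 in Prlr+/+ islets. The difference between the genotypes was not called in limma for either gene (adjusted p of 0.443 for Elovl7 and 0.289 for Wdr72). The Prlr+/+ values were widely spread, with Elovl7 at 5.9, 5.8 and 7.3 in NP arrays and Wdr72 at 6.6, 4.7 and 5.9 at P9.5. With the acinar covariate Elovl7 was not called in Prlr-/- islets (adjusted p of 0.0543 in limma). Its change there was 2.04, with a standard error of 0.587 in place of 0.424.

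Other large increases were seen in both genotypes. Bet1, a SNARE protein of transport from the endoplasmic reticulum (ER) to the Golgi, was at 7.2, 7.1 and 7.0 in NP islets and at 8.7, 8.3 and 8.8 at P9.5, with log2 fold changes of 1.5 in Prlr-/- and 1.40 in Prlr+/+ islets. Mrpl42, a protein of the mitochondrial ribosome, rose by 1.5 and 1.33, and Gnpnat1, which makes the precursor of UDP-GlcNAc, by 1.47 and 1.33. Tfrc, the transferrin receptor for iron uptake, had NP values of 7.3, 7.3 and 6.3 and P9.5 values of 9.0, 8.3 and 8.0. It changed by 1.47 with an error of 0.357 (adjusted p = 0.00925), with 1 NP array a whole log2 unit below the other 2. With the acinar covariate the change of Tfrc was 1.59 with an error of 0.499, and it was not called. Ly96, the partner of the endotoxin receptor TLR4, rose by 1.37, Gemin6, part of the complex that assembles spliceosome particles, by 1.43, and Cmbl, a hydrolase, by 1.47.

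**Figure D1:**
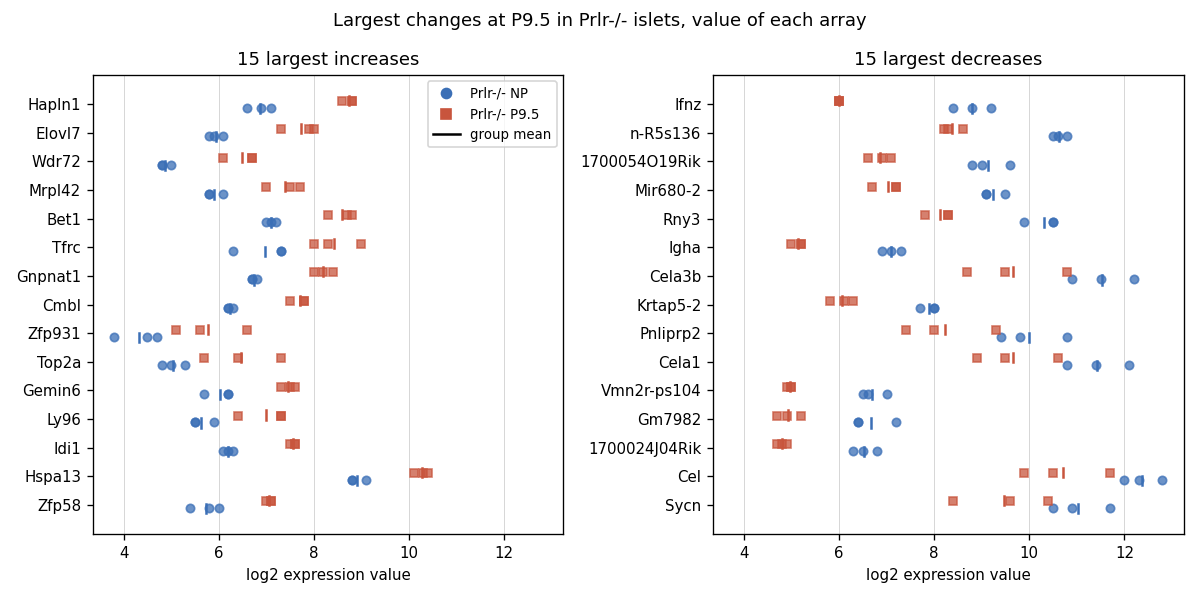
Log2 expression value (x axis) of the 15 genes with the largest increase and the 15 with the largest decrease among called genes with no overlap between groups, in each of the 3 Prlr-/- NP arrays (circles) and the 3 Prlr-/- P9.5 arrays (squares). Vertical ticks are group means. Hapln1 and Ifnz show well separated groups, while the acinar genes Cela3b, Cela1, Pnliprp2, Cel and Sycn are spread over more than 1 log2 unit within the P9.5 group and by 0.8 or more within the NP group.

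Genes of the secretory pathway rose together. Proteins such as proinsulin are folded in the ER by chaperones, and a set of stress sensors adjusts the number of those chaperones to the load. Of 32 measured genes of ER folding and the unfolded protein response, 16 rose and 0 fell, against 7.85% and 3.06% of all genes. The median log2 fold change was 0.60, against -0.07 for all genes. All 32 lie in the brightest of 5 bins of genes by mean signal, where 17.6% rose and the median was 0.27. Hspa5, the main ER chaperone (BiP), was at 11.3, 10.9 and 10.9 in NP islets and at 11.9, 12 and 12.1 at P9.5. The change of 0.97 had a standard error of 0.12 and an adjusted p of 0.000238. Dnajb9, one of its co-chaperones, went from 9.9, 9.4 and 9.7 to 10.8, 10.7 and 11.1, and had the largest change of the list, 1.2. The groups did not overlap for either gene.

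Further members that rose serve import, cleavage and folding. Ssr3 and Ssr1, subunits of the complex at the ER import channel, rose by log2 fold changes of 1.00 and 0.83. Spcs2 and Sec11c, subunits of the signal peptidase, rose by 0.73 and 0.70. The disulphide-forming enzymes Ero1a, Pdia4 and Pdia6 rose by 0.93, 0.83 and 0.63. Of the 3 sensors, Atf6 and Eif2ak3 (PERK) rose by 0.70 and 0.83, while Ern1 (IRE1) was not called at -0.37. Xbp1, the transcription factor downstream of IRE1, was also not called at 0.43. Hspa13, an ER-bound relative of the chaperones that was outside the list, was at 9.1, 8.8 and 8.8 in NP islets and at 10.3, 10.1 and 10.4 at P9.5, a change of 1.37. In Prlr+/+ islets 12 of the 32 genes rose, and all of these 12 rose in Prlr-/- islets too. With the acinar covariate 13 rose in Prlr-/- islets. After quantile normalization of the 12 arrays 9 rose.

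Sterol synthesis is the pathway from acetyl-CoA to cholesterol that is set by the SREBP2 transcription factor. It had the highest share of members that rose among the lists. Of 20 genes 11 rose and 0 fell, against 7.85% and 3.06% of all genes, with a median log2 fold change of 0.65. The brightest 2 of 5 bins of genes, where 12.5% and 17.6% rose, hold 17 of the 20. Idi1, which isomerises the basic isoprene unit, was at 6.1, 6.3 and 6.2 in NP islets and at 7.6, 7.5 and 7.6 at P9.5. Its change of 1.37 was the largest of the list, with a standard error of 0.125 and an adjusted p of 8.51e-05. Lss, which closes the ring to lanosterol, went from 7.1, 7.2 and 7.0 to 8.2 in each P9.5 array. Cyp51, which removes a methyl group from lanosterol, went from 6.1, 6.3 and 6.3 to 7.4, 7.4 and 7.3.

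The other members that rose were Msmo1, Fdft1, Hmgcs1, Insig1, Sc5d, Fdps, Stard4 and Ebp, by 0.60 to 0.90. Sqle was not called at a log2 fold change of 0.53, which is under the fold minimum, and Srebf2 itself was at -0.10. The mean level of the list was 7.29 to 7.38 in the NP arrays and 7.92 to 7.96 in the P9.5 arrays. The 3 P9.5 arrays differed by less than 0.1 in this mean. With the acinar covariate 10 of the 20 rose. In Prlr+/+ islets 8 rose, 7 of them shared.

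Genes of DNA replication and mitosis rose in Prlr-/- islets. Of 29 replication genes 11 rose and 0 fell (median log2 fold change 0.20), and of 29 mitosis genes 10 rose and 0 fell (median 0.37). Among all genes 7.85% rose and 3.06% fell. Pcna, the clamp that holds the polymerase on DNA, was at 7.3, 7.3 and 7.0 in NP islets and at 8.2, 8.1 and 8.4 at P9.5, and changed by 1.03 in both genotypes. Ccne2, a cyclin of entry into S phase, went from 4.3, 4.4 and 4.5 to 5.3, 5.4 and 6.1. Rrm1, the large subunit of ribonucleotide reductase, rose by 0.93, and the helicase subunits Mcm3, Mcm4 and Mcm6 rose by 0.60, 0.60 and 0.77. Mcm6 was not called when replicate 3 of either Prlr-/- group was left out (0.63 in each case) or with the acinar covariate (0.84). Mcm3 and Mcm4 were each at 0.53 and not called without P9.5 replicate 3, and leaving out NP replicate 2 or P9.5 replicate 1 for Mcm3, or NP replicate 1 for Mcm4, also ended the call.

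The mitosis genes differed between the pregnant animals more than the replication genes did. Top2a, the topoisomerase that untangles chromosomes, was at 5.3, 4.8 and 5.0 in NP islets and at 5.7, 6.4 and 7.3 in P9.5 replicates 1, 2 and 3. The same order of the 3 pregnant arrays was seen for Mki67, a marker of cycling cells, which was at 5.3, 5.0 and 5.2 in NP islets and at 5.5, 5.8 and 6.7 at P9.5. Without P9.5 replicate 3 the change of Mki67 was 0.48 and not called. The mean of the 29 mitosis genes was 5.03 to 5.10 in NP arrays and 5.2, 5.47 and 5.94 at P9.5. P9.5 replicate 3 was thus the highest in mitosis genes and the lowest in acinar RNA. Nuf2, Ect2, Prc1, Kif11 and Hmmr rose by log2 fold changes of 0.87 to 1.17.

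Without Prlr-/- P9.5 replicate 3, 5 mitosis genes were called in place of 10, and with the acinar covariate 0 were called, against 7 of the replication genes. Without the dimmest 40% of probe sets 5 mitosis genes rose, since most of the 29 are dim and 0 lie among the brightest 2 of 5 bins of genes. In Prlr+/+ islets 0 mitosis genes were called, with a median of 0.20, and 6 replication genes rose. The difference between the genotypes was called for 0 genes of both lists. A second, dimmer probe set of Top2a had a log2 fold change of 0.10 and was not called.

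**Figure D2:**
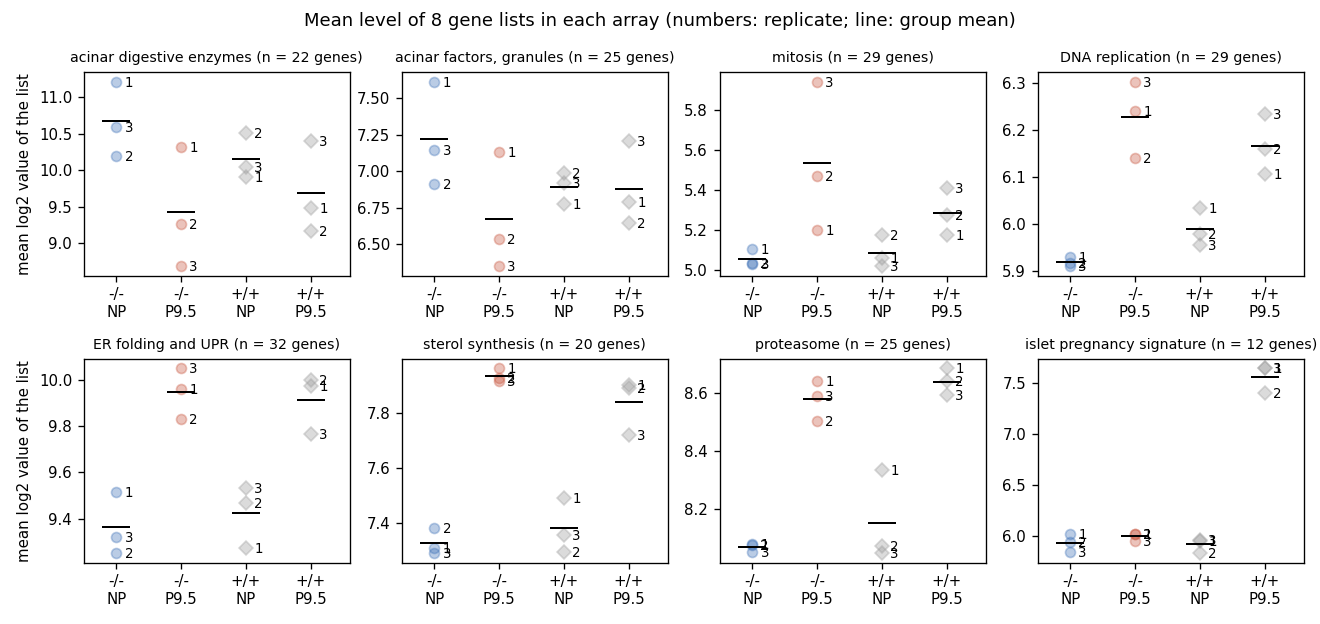
Mean log2 value (y axis) of the measured members of 8 gene lists in each array of the 4 groups (x axis, genotype and stage). Points carry the replicate number and horizontal lines are group means. The sterol and ER lists separate NP from P9.5 in both genotypes, the mitosis mean of Prlr-/- P9.5 runs from 5.2 to 5.94, the acinar lists overlap between groups, and the signature of 12 genes moves in Prlr+/+ islets alone among the 2 genotypes (7.40 to 7.64 at P9.5, against 5.95 to 6.03 in Prlr-/-).

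Breakdown of branched-chain amino acids, proteasome subunits and mitochondrial genes made up another group of increases. Of 22 genes that degrade leucine, isoleucine and valine 9 rose and 0 fell, against 7.85% and 3.06% of all genes. Their median log2 fold change was 0.52, and 15 of the 22 lie in the brightest of 5 bins of genes, where 17.6% rose. Dld, the dehydrogenase subunit shared by several mitochondrial complexes, was at 7.8 in each NP array and at 9.0, 8.7 and 8.9 at P9.5. Ppm1k, the phosphatase that activates the branched-chain dehydrogenase, rose by 0.83, and its subunits Dbt and Bckdhb by 0.77 and 0.63. Pcca, Pccb and Mmut, which carry propionyl units into the citric acid cycle, rose by 0.77, 0.63 and 0.70. All 9 remained called with the acinar covariate, and the number that rose was 5 after quantile normalization and 14 after median centring. Ivd, the leucine enzyme of the pregnancy signature, was not called at 0.37.

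Of 25 proteasome genes 8 rose and 0 fell, against 7.85% and 3.06% of all genes, with a median of 0.47. In the brightest of 5 bins of genes, which holds 24 of the 25, 17.6% rose and the median was 0.27. Psmd14, the deubiquitinase of the lid, went from 7.3, 7.2 and 7.1 to 8.4, 8.2 and 8.3. After quantile normalization 2 genes rose, and after median centring 16. Of 28 respiratory chain genes 6 rose, against 7.85% of all genes, among them Ndufs1 of complex I by 0.80 and Cox7a2 of complex IV by 0.87. In this list 22 of 28 genes lie in the brightest of 5 bins of genes, where 17.6% rose. Hspe1, the mitochondrial co-chaperonin, was at 7.4, 7.5 and 7.4 in NP islets and at 8.5, 8.3 and 8.6 at P9.5. Hadhb, a subunit of the trifunctional protein of fatty acid oxidation, went from 8.5, 8.4 and 8.5 to 9.4 in each P9.5 array. It was 1 of 2 genes that rose among 25 of fatty acid oxidation, a share close to that of all genes.

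Of 25 genes of ribosome biogenesis 6 rose, against 7.85% of all genes, and the number was 12 in Prlr+/+ islets. The brightest 2 of 5 bins of genes, where 12.5% and 17.6% rose, hold 24 of the 25. Nop56, a core protein of the particles that methylate ribosomal RNA, was at 8.0, 8.0 and 8.1 in NP islets and at 9.1, 9.0 and 9.1 at P9.5. With the acinar covariate it was the only member of the list still called. Of 21 heat shock genes 5 rose, against 7.85% of all genes, and 14 of the 21 lie in the brightest bin. The count was 2 without Prlr-/- NP replicate 1 and 2 without Prlr-/- P9.5 replicate 3, and 1 with the covariate. Pgk1, an enzyme of glycolysis, went from 8.4, 8.4 and 8.2 to 9.4, 9.4 and 9.5, while 2 of 21 genes of hypoxia and glycolysis rose, a share close to that of all genes. Oat, an aminotransferase usually kept low in beta cells, rose by 1.07 as the only called member of 16 such genes, a share not above the 7.85% of all genes.

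**Figure D3:**
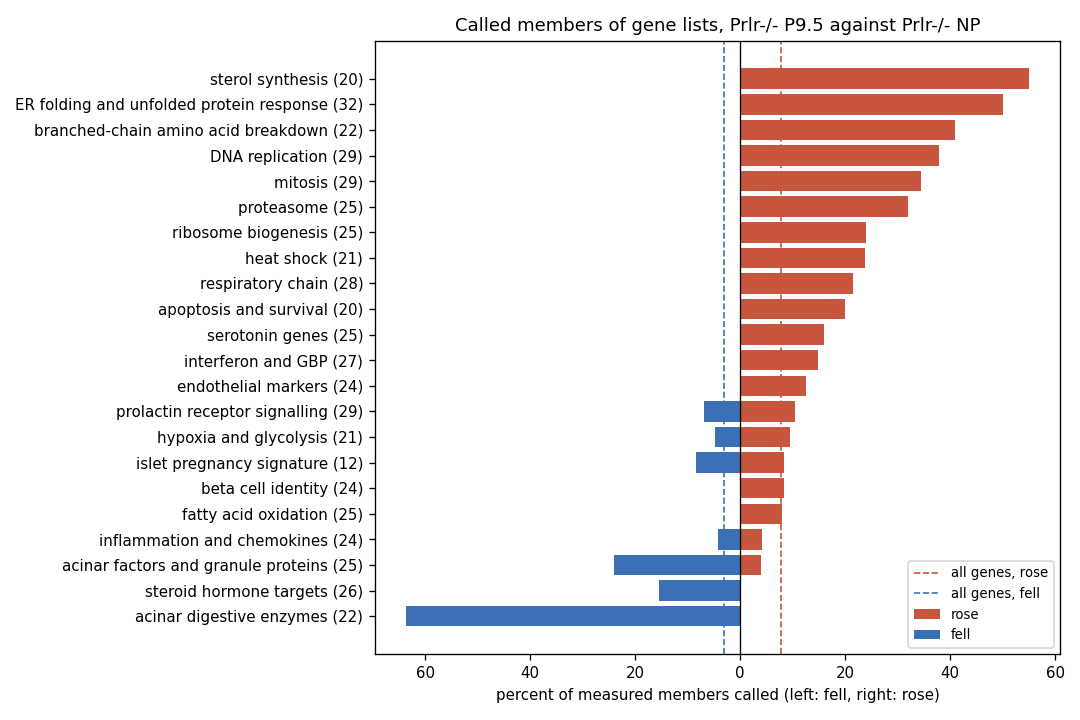
Percent of the measured members (number in parentheses) that fell (bars to the left) or rose (bars to the right) in Prlr-/- islets at P9.5, for lists with at least 2 called members. Dashed lines give the same for all genes (7.85% rose, 3.06% fell). Sterol synthesis (11 of 20) and ER folding (16 of 32) had the largest shares that rose, and the acinar digestive enzymes (14 of 22) the largest share that fell.

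Of 24 genes of beta cell identity 2 rose, 0 fell and the median log2 fold change was 0.00, a share that rose close to the 7.85% of all genes. Neurod1, a transcription factor of endocrine cells, was at 9.0, 9.4 and 9.4 in NP islets and at 9.8, 9.9 and 10 at P9.5, and Ucn3, a peptide of mature beta cells, went from 9.7, 9.9 and 9.9 to 10.4, 10.4 and 10.5. Their log2 fold changes were 0.63 and 0.60, as in Prlr+/+ islets, and close to the fold minimum. Neither was called without Prlr-/- NP replicate 1 (0.50 and 0.53), without Prlr-/- P9.5 replicate 3 (0.58 and 0.57) or with the acinar covariate. Pdx1, Mafa and Nkx6-1, transcription factors of beta cells, had log2 fold changes of -0.17, -0.30 and -0.37 and were not called. Of 14 genes of other endocrine cells 0 passed in limma, against 3 at an unadjusted p below 0.05. Somatostatin (Sst) was at 13.4, 13.6 and 13.6 in NP islets and at 13.3, 13.4 and 13.4 at P9.5, and amylin (Iapp) lay at 12.4 to 12.6 in all 6 arrays.

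Of 25 genes of serotonin synthesis, turnover and sensing 4 rose and 0 fell, against 7.85% and 3.06% of all genes, and the median was -0.10. Tph1 and Tph2, the enzymes that start serotonin synthesis, were not called. Tph2 was at 5.0, 4.9 and 4.7 in NP islets and at 4.9 in each P9.5 array, and Tph1 had a log2 fold change of 0.00, and of 0.03 in Prlr+/+ islets. The genes that rose were Maob and Maoa, the oxidases that degrade serotonin, by 0.90 and 0.80, Ddc, the decarboxylase of the second step of synthesis, by 0.63, and Gch1, which starts synthesis of the hydroxylases' cofactor, by 0.77. Maob was at 10.1, 10.1 and 10 in NP islets and at 11, 10.8 and 11.1 at P9.5. With the covariate 2 genes of the list rose, and likewise 2 after quantile normalization. No receptor of serotonin on the list was called.

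Of 29 measured genes of the prolactin receptor pathway itself 3 rose and 2 fell, with a median of 0.00, against 7.85% and 3.06% of all genes. With the acinar covariate 1 rose and 1 fell. Cish, a feedback inhibitor that STAT5 induces, was at 7.6, 7.6 and 6.2 in NP islets and at 6.1, 6.3 and 5.8 at P9.5. It fell by 1.07 on the log2 scale with an error of 0.361 and an adjusted p of 0.0406, the groups overlap, and the NP arrays spread over 1.4. The call was lost with the acinar covariate (-1.12, adjusted p = 0.192), in a fit of the 6 Prlr-/- arrays alone, with the replicate number as a block, after median centring or quantile normalization, and when any of 8 of the 12 arrays was left out, and the log2 fold change ran from -1.53 without Prlr-/- NP replicate 3 to -0.83 without Prlr-/- NP replicate 1. In Prlr+/+ islets Cish rose by 1.57, and the difference between the genotypes was not called. Socs2, another STAT5 target, was not called in Prlr-/- islets at 0.07 and rose by 1.97 in Prlr+/+ islets, a difference called in the interaction.

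Bcl6, a repressor that STAT5 is known to silence, was at 6.1, 5.3 and 5.7 in NP islets and at 6.5, 5.9 and 7.0 at P9.5. It rose by 0.77 (adjusted p = 0.0397) with overlapping groups, and fell by 1.13 in Prlr+/+ islets. The difference of 1.90 had an adjusted p of 0.111. Its call in Prlr-/- islets was lost when any of 7 of the 12 arrays was left out, and the change ran from 0.50 without Prlr-/- P9.5 replicate 3 to 1.05 without Prlr-/- P9.5 replicate 2. Cish and Slc15a2, a peptide transporter, were the 2 genes that fell in Prlr-/- and rose in Prlr+/+ islets, and Bcl6 was the only gene that rose in Prlr-/- and fell in Prlr+/+ islets. Slc15a2 was named after its values were seen, and its call was lost when any of 6 of the 12 arrays was left out. The phosphatase Ptpn2 and the inhibitor Socs4 each rose by 0.80 (a second probe set of Ptpn2 was at 0.37 and not called), and Socs7 fell from 7.4, 7.6 and 7.4 to 6.7, 6.8 and 6.9. Jak2, Stat5a and Stat5b, the kinase and transcription factors of the pathway, were at 0.20, -0.13 and -0.10.

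The promoter of Cish shows the letters through which STAT5 is known to bind, TTCNNNGAA on either strand. A stretch of 30 bases at its transcription start (GRCm38.p6, chr9:107296654-107296683, plus strand, from RefSeq) is printed here. It was chosen because Cish was called in opposite directions in the 2 genotypes, though the difference between them was not called. The stretch has 2 such matches in capitals, whose first bases lie at positions 1 and 12 counted from the start.
Cish: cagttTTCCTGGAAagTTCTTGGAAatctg
The motif was present in 8.3% of 32851 promoters of 300 bases, and in 2 of 7 promoters found for the signature genes (Cish and Ivd). A match is a description of the letters and not a measured site.

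The islet pregnancy signature, 12 genes that the study took from its earlier work on pregnant islets, was the list with the most members called in the interaction of pregnancy and genotype. In Prlr-/- islets 1 rose (Ehhadh) and 1 fell (Cish), against 7.85% and 3.06% of all genes, and the median log2 fold change was 0.07. In Prlr+/+ islets 11 rose, against 5.86% of all genes, with a median of 1.53. Cldn8, a tight junction protein, was at 4.8, 4.7 and 4.7 in NP and at 4.6, 4.7 and 4.4 in P9.5 Prlr-/- islets, while its change in Prlr+/+ islets was 3.20. Neb, a protein of muscle filaments, was at 5.2, 5.1 and 5.2 in both Prlr-/- groups. Lonrf3, Gbp8, Matn2 and Tnfrsf11b had changes of -0.07 to 0.17.

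Ehhadh, which oxidises fatty acids in peroxisomes, was the 1 that rose, at 6.6, 6.2 and 6.5 in NP islets and at 7.2, 7.1 and 6.9 at P9.5. It rose by 0.63 (adjusted p = 0.00442), against 1.43 in Prlr+/+ islets, and it was not called when NP replicate 2 (0.52) or P9.5 replicate 1 (0.57) of this genotype was left out. Car8 had a change of 0.57 with an adjusted p of 0.0212, under the fold minimum, and its 3 P9.5 values (7.3, 7.3 and 7.1) lay above its NP values (6.6, 6.6 and 6.8). The interaction was called for 6 of the 12 genes (0.105% of all genes): Cldn8, Tph2, Lonrf3, Car8, Ivd and Neb, all less changed in Prlr-/- islets.

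Across all genes the responses of the 2 genotypes were alike in direction. Of the 1566 genes that rose in Prlr-/- islets 816 (52.1%) rose in Prlr+/+ islets too, which is 69.9% of the 1168 that rose there, against 5.86% of all genes. Of the 610 that fell 95 (15.6%) also fell in Prlr+/+ islets, 21.7% of the 437 there, against 2.19% of all genes. The 2 comparisons share no array. Across genes, which are not independent replicates, the 2 sets of log2 fold changes correlated with a Pearson r of 0.768 and a Spearman rho of 0.753. Both sets also shifted with signal level. In the brightest of 5 bins of probe sets the median was 0.20 in Prlr-/- and 0.13 in Prlr+/+ islets. In the second dimmest bin it was -0.20 and -0.13. The part of this shift in the agreement was not tested. The 911 genes called the same way became 756 without Prlr+/+ P9.5 replicate 2, the array with the low Xist level. The interaction called 28 of 35511 probe sets (0.0788%) and 21 genes, all with a lower change in Prlr-/- islets, and 2 of those genes were also called in Prlr-/- islets, Ifnz and Cntn3. Cntn3, an adhesion protein of neurons, rose in both genotypes, by 0.60 in Prlr-/- and 1.7 in Prlr+/+ islets. Without the receptor it was no longer called when NP replicate 1 (0.52) or P9.5 replicate 1 or 2 (0.58 each) was left out, or with the acinar covariate (0.57).

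**Figure D4:**
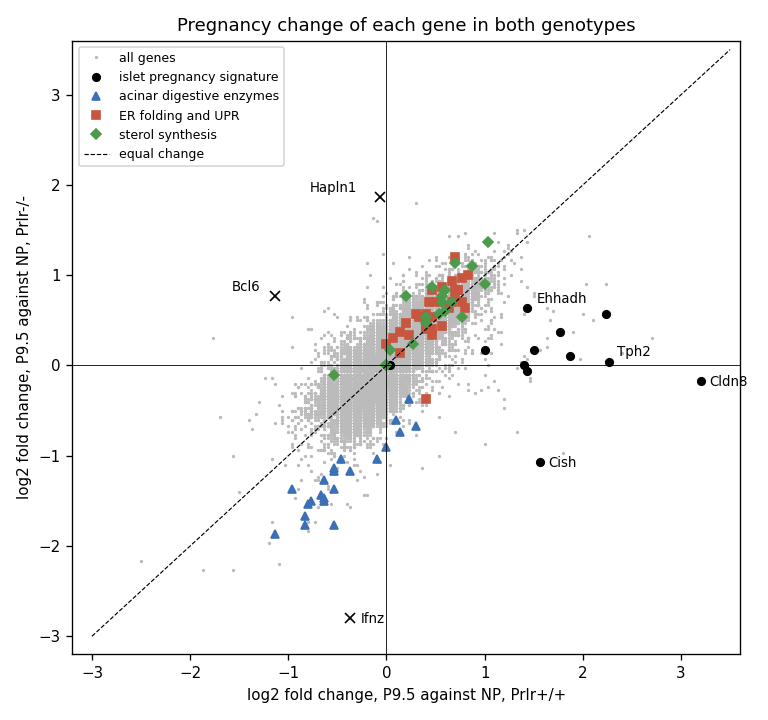
Log2 fold change at P9.5 against NP in Prlr+/+ (x axis) and Prlr-/- islets (y axis), 1 point per gene, with 4 gene lists marked and the dashed line at equal change. ER and sterol genes lie along the line, 11 of the 12 signature genes have a change of at least 1.00 on the x axis and of -1.07 to 0.63 on the y axis, acinar enzymes lie below the line, and Hapln1, Bcl6 and Ifnz stand off it.

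Ifnz, which encodes an interferon of a family with many near-identical copies, had the largest decrease. It was at 8.8, 8.4 and 9.2 in NP islets and at 6.0 in each P9.5 array. The change of -2.80 had a standard error of 0.194 and an adjusted p of 4.98e-05, against -0.37 in Prlr+/+ islets. The difference of -2.43 was called (adjusted p = 0.00738). In Prlr+/+ islets the mean was 6.60 in NP and 6.23 at P9.5, so the Prlr-/- P9.5 values lay below those of both Prlr+/+ groups and the Prlr-/- NP values above them. In all, 19 probe sets name Ifnz, 1 of them alone and the others together with members of the same family. All 19 fell, with log2 fold changes of -2.80 to -1.47, and 4 were called in the interaction. They hold 13 different sets of values, so they are not 19 independent measurements. Signal of the copies cannot be told apart by these probes, so which of them changed is uncertain. Of 27 interferon response genes 4 rose and 0 fell, against 7.85% and 3.06% of all genes. The 4 that rose were Ifih1, a sensor of viral RNA, from 6.6, 6.9 and 7.1 to 8.0, 7.8 and 8.1, and Gbp3, Gbp7 and Irgm1, GTPases of cell defence, each by 0.73.

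The other large decreases were of mixed kinds. Among the 15 largest were Krtap5-2, a keratin-associated protein of hair (-1.83), the receptor pseudogene Vmn2r-ps104 (-1.73) and Gm7982 (-1.73), beside those described here. Rny3, a small RNA bound by the Ro protein, was at 10.5, 10.5 and 9.9 in NP islets and at 8.3, 7.8 and 8.3 at P9.5, with log2 fold changes of -2.17 in Prlr-/- and -2.50 in Prlr+/+ islets. Igha, the constant region of immunoglobulin A, went from 6.9, 7.1 and 7.3 to 5.2, 5.0 and 5.2. Both stayed called with the acinar covariate. Zbtb16, a transcription factor that glucocorticoid and progesterone induce, was at 7.8, 7.7 and 7.6 in NP islets and at 6.2, 6.3 and 6.4 at P9.5. It fell by 1.40 in Prlr-/- and by 1.5 in Prlr+/+ islets. Fkbp5, a co-chaperone of steroid receptors induced by the same hormones, was at 9.7 in each NP array and at 9.0, 8.8 and 8.9 at P9.5. With Mt1 and Lcn2 these were 4 of 26 steroid hormone targets that fell, and 0 rose, against 3.06% and 7.85% of all genes. The count was 2 without Prlr-/- NP replicate 1 and 2 without Prlr-/- P9.5 replicate 3, and 0 with the covariate, where Zbtb16 was at -1.23 with an adjusted p of 0.0604.

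Acinar digestive enzymes fell as a block. Of 22 measured enzymes 14 fell and 0 rose, against 3.06% and 7.85% of all genes. All 22 had a negative change, with a median log2 fold change of -1.32. In Prlr+/+ islets 0 were called and the median was -0.53. Cela3b, a pancreatic elastase, was at 12.2, 10.9 and 11.5 in NP islets and at 10.8, 9.5 and 8.7 at P9.5. Its change of -1.87 had a standard error of 0.546 and an adjusted p of 0.022. Cela1, another elastase, went from 12.1, 10.8 and 11.4 to 10.6, 9.5 and 8.9, and Cel, the bile salt-dependent lipase, from 12.8, 12 and 12.3 to 11.7, 10.5 and 9.9. For each of these the highest P9.5 value, that of replicate 1, lay within 0.3 of the lowest NP value, that of replicate 2.

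The count rests on single arrays. It was 0 without Prlr-/- NP replicate 1, 0 without Prlr-/- P9.5 replicate 3, 0 with array weights and 7 in a fit of the 6 Prlr-/- arrays alone, against 19 without Prlr-/- P9.5 replicate 1. The difference between genotypes was called for 0 enzymes. Of 25 acinar transcription factors and granule proteins 6 fell and 1 rose, against 3.06% and 7.85% of all genes. The 1 that rose was Bhlha15 (Mist1), a factor of secretory cells, from 7.2, 7.0 and 7.3 to 8.2, 7.8 and 8.3, and it rose in Prlr+/+ islets too (0.77). The 6 that fell were Sycn, Dmbt1, Tff2, Muc1, Aqp12 and Rbpjl, and without Prlr-/- NP replicate 1 or without Prlr-/- P9.5 replicate 3 the number was 1. Of the regenerating (Reg) proteins, which acinar cells also secrete, 0 of 7 passed in limma, 2 were below 0.05 without adjustment, and all 7 had a negative change. Reg2 was at 8.7, 6.7 and 8.2 in NP islets and at 9.2, 5.6 and 5.9 at P9.5.

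The promoters of 3 of the enzymes are shown because these genes moved together from array to array. PTF1, the factor that drives acinar genes, binds a site made of CACCTG and TTTCCCA. The 250 bases before the start of each gene (GRCm38.p6, minus strand, from RefSeq, written 5′ to 3′ along the gene) have either part in capitals, on both strands: Cela1 at chr15:100687921-100688170 with 1 CACCTG, Cela3b at chr4:137430521-137430770 with 2, and Cel at chr2:28563404-28563653 with 4 and 1 TTTCCCA.
Cela1: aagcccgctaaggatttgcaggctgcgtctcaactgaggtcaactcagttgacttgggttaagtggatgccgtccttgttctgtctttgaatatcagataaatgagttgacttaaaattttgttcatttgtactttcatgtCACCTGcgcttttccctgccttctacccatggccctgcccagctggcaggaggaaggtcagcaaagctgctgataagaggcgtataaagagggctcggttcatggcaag
Cela3b: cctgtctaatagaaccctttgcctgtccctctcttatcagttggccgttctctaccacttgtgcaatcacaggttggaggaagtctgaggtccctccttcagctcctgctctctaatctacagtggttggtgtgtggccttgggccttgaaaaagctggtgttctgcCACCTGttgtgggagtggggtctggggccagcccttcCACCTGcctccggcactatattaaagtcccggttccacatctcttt
Cel: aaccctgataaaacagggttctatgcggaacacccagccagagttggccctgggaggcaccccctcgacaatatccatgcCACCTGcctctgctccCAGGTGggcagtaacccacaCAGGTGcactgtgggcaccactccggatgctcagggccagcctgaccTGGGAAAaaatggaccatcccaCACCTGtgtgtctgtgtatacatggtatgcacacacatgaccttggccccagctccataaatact
CACCTG was found in 12 of 19 promoters of 18 of the enzymes (63.2%), against 20.2% of all 32851 promoters of 300 bases, and TTTCCCA in 6 (31.6%), against 8.06%. Cela1 and Cela3b held 0 TTTCCCA in the bases shown. These matches describe letters and not measured sites, and a part of PTF1 in the changes was not tested.

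Markers of the other cell types of the islet moved less than the acinar genes. Of 24 endothelial markers 3 rose (Emcn, Tek and Cd34) and 0 fell, against 7.85% and 3.06% of all genes. After quantile normalization 1 rose. The brightest 2 of 5 bins of genes, where 12.5% and 17.6% rose, hold 17 of the 24. The median was 0.05, and the list means were 7.06 to 7.11 in NP and 7.13 to 7.24 in P9.5 arrays. Emcn, a surface sialomucin of venous and capillary endothelium, went from 7.9, 7.6 and 7.7 to 8.6, 8.3 and 8.6. Of 25 immune and 24 stromal markers 0 passed in limma, against 7 immune and 5 stromal ones at an unadjusted p below 0.05. The immune mean was 5.33 to 5.40 in NP and 5.24 to 5.42 in P9.5 arrays. Of 20 ductal markers 1 rose, a share not above the 7.85% of all genes. It was Tspan8, a tetraspanin, from 7.7, 7.4 and 7.1 to 8.5, 8.3 and 8.4.

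MicroRNA genes fell without exception among those called. Of 300 microRNA genes measured by a probe set that names only them 49 fell and 0 rose, against 3.06% and 7.85% of all genes. Over all 305 probe sets with such a symbol 51 fell and 0 rose, and after quantile normalization 36 fell and 5 rose. A probe set of this array sees the precursor or host transcript and cannot tell the mature arms. The genes below were chosen after their values were seen, except Mir680-2, which is among the 15 largest decreases. Mature sequences are from RefSeq (GRCm38.p6), with the seed, bases 2 to 8, in capitals, since 4 seeds were shared by more than 1 of the genes that fell.
mmu-miR-680: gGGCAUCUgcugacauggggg
mmu-miR-17-5p: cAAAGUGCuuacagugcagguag
mmu-miR-106b-5p: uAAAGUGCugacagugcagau
mmu-miR-93-5p: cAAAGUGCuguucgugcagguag
mmu-miR-20b-5p: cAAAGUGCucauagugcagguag
mmu-miR-96-5p: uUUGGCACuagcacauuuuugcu
mmu-miR-338-3p: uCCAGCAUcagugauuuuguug

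The sequence of miR-680 is encoded by 3 genes that all fell, Mir680-2 (chrX:144297790-144297810) from 9.1, 9.1 and 9.5 to 7.2, 6.7 and 7.2, Mir680-1 by 1.5 and Mir680-3 by 0.90. The seed AAAGUGC is shared by miR-17-5p, miR-106b-5p, miR-93-5p and miR-20b-5p, a family known for its part in cell cycle control. Mir17 was at 4.9, 4.9 and 5.0 in NP islets and at 4.1, 4.3 and 4.1 at P9.5, and Mir106b at 5.9, 6.1 and 6.1 and at 5.0, 5.5 and 5.4. Mir93 and Mir20b fell by 0.63 and 0.60, and lost their calls when any of 2 and of 4 arrays was left out, with -0.52 as the smallest change of each. Mir93 and Mir106b lie next to each other on chromosome 5, so their transcripts are not independent. Mir96 went from 5.6, 5.5 and 5.5 to 4.1, 4.3 and 4.2. Mir338 went from 7.1, 6.7 and 7.0 to 5.8, 5.9 and 5.7. The changes in Prlr+/+ islets were -0.60 for Mir96 and -0.53 for Mir338.

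The direction of a change went with the signal level of the gene. When genes were ordered by their mean over the 12 arrays and split into 5 bins, 0.65% rose and 4.32% fell in the dimmest bin, and 17.6% rose and 1.71% fell in the brightest, with median log2 fold changes of -0.17 and 0.27. The lower quartile of all probe sets was 4.8 in each NP array and 4.6 in each P9.5 array of Prlr-/- mice. Of the ER list 32 of 32 genes lie in the brightest bin, of the proteasome list 24 of 25, of the sterol list 7 of 20 and of the mitosis list 0 of 29. The brightest 2 bins together hold 17 of the 20 sterol genes. Olfactory receptor genes (Olfr), which islets hardly use, had a median level of 4.16 and a median change of -0.30. Of their 1035 probe sets 102 fell (9.86%), against 7.09% of all probe sets. In the 2 dimmest of 5 bins of probe sets 5.56% and 10.2% fell. After quantile normalization 21 of the Olfr probe sets fell. The part of this trend in the calls of single lists was not tested.

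**Figure D5:**
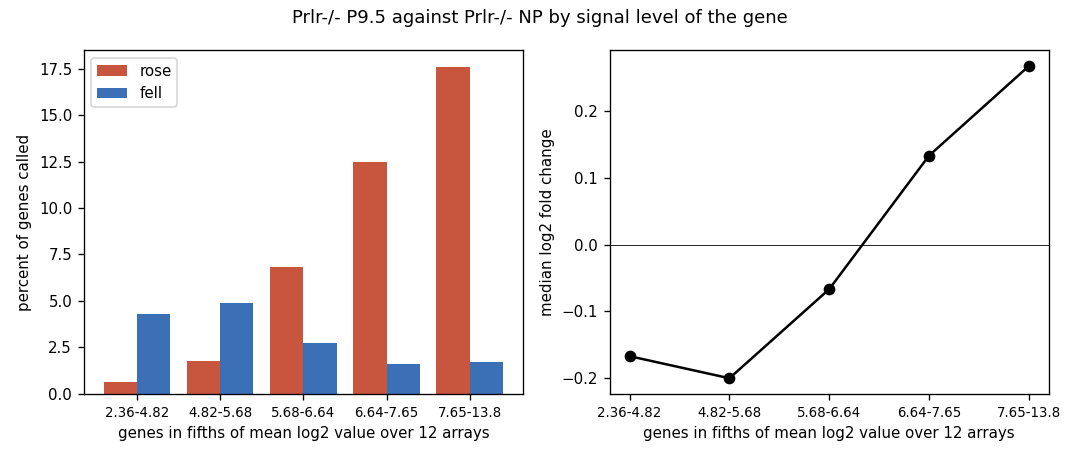
Percent of genes that rose or fell (left) and median log2 fold change (right) in Prlr-/- islets at P9.5 against NP, for genes in 5 bins of equal size by mean log2 value over the 12 arrays (x axis, range of each bin). The share that rose climbs from 0.65% to 17.6% and the median change from -0.17 to 0.27 between the dimmest and the brightest bin.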

How the data were processed

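RNA of collagenase-isolated islets was hybridised to Affymetrix MoGene_1.0_ST arrays, 3 in each of 4 groups. The authors turned the raw arrays into deposited log2 values by robust multichip analysis (background correction, quantile normalization and 1 summary per probe set) with the aroma.affymetrix package in R 2.12.2, and the table is rounded to 0.1. The genome build is not given in the sources used here. Of 35511 probe sets 21789 carry the symbol of 1 gene, 1621 of several and 12101 none, and 21698 were matched to current symbols through the Entrez identifier. Where a gene had several probe sets of its own, the brightest on average stood for it, and probe sets of 1 named gene disagreed in call in 7 of 42 cases, never in direction of a call. The number of arrays limits the precision. Depth does not apply to arrays.

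The values were tested in R 4.3.3 with limma 3.58.1. One model with 4 group means was fitted to all probe sets (lmFit, eBayes). The contrasts were P9.5 against NP in each genotype and their interaction. A call needed a fold change of at least 1.5 and a Benjamini-Hochberg adjusted p under 0.05 over all probe sets, and 2 was tried as another fold minimum. On simulated data for the Prlr-/- comparison, with 200 of 35511 probe sets changed, the share found was 18% for changes of 0.6 on the log2 scale (0 false calls), 76% for changes of 1 (4 false calls) and 96% for changes of 2 (4 false calls).

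The members and the gene lists were chosen with earlier results of these data known. Named genes are the 15 largest increases and decreases among called genes without overlap, the signature genes, the members of each list with the largest changes, and genes called in the interaction or with the acinar covariate. Gene lists are described by counts and medians, with no test. Same-numbered arrays of Prlr-/- mice deviated from their group means with correlations of 0.0469, -0.114 and 0.193, so the numbers were not taken as pairs. Alternatives were the Prlr-/- arrays alone, a replicate block, leaving out each array, dim or unnamed probe sets left out, other scalings, array weights, another variance prior and the acinar mean as covariate (not used for members of the acinar lists). Counting equal probe sets once (486 repeat an earlier one) was chosen after seeing the data. Promoter and microRNA sequences are from RefSeq (GRCm38.p6).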

Additional observations from a re-analysis of the deposited data

Results flagged for a closer look

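Genes with a called interaction are those whose pregnancy change differed between the genotypes by a test of the difference itself. Among the genes named in the report these were 9, each with a lower change in Prlr-/- than in Prlr+/+ islets: Cldn8 (a difference of -3.37 on the log2 scale), Ifnz (-2.43), Tph2 (-2.23), Socs2 (-1.9), Lonrf3 (-1.77), Car8 (-1.67), Ivd (-1.40), Neb (-1.40) and Cntn3 (-1.10). Ifnz is the only one of them that fell in Prlr-/- islets, from a non-pregnant level above that of Prlr+/+ islets, and Cntn3 the only one that rose in both genotypes, with an adjusted p of 0.0499 for the difference. The pellet was given to the pregnant Prlr-/- mice, so the pellet and the genotype cannot be told apart in these differences.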

How the results depend on the processing

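Against 2641 probe sets that rose and 2518 that fell, median centring gave 4835 and 1510, the acinar covariate 1131 and 1505, no fold minimum 5548 and 6298, and a minimum of 2 gave 477 and 1016. Without the dimmest 40% of probe sets 1439 fell, and among named probe sets 1255, both with fewer tested. Median centring moved the median of all probe sets from -0.07 to 0.10, a shift of 0.17, and the share of calls that were higher from 51.2% to 76.2%. That share was 61.7% without the dimmest probe sets, 59.7% among named ones, 46.8% with no minimum, 31.9% with a minimum of 2, 42.9% with the covariate and 47.3% without Prlr-/- P9.5 replicate 3. Probe sets called in Prlr-/- islets and in the interaction numbered 7, and 29 without the dimmest, 64 among named ones, 22 after quantile normalization, 39 with array weights and 13 with no minimum. Genes called the same way in both genotypes numbered 911, and 3231 with no minimum, 57 with a minimum of 2 and 495 with the covariate. The causes were not tested. Leaving out 1 array at a time gave 1929 to 3141 that rose, 2146 to 2838 that fell, 4 (without Prlr-/- P9.5 replicate 3) to 22 (without Prlr-/- NP replicate 2) with the interaction, and 756 to 1048 shared genes. The replicate numbers do not pair the arrays, and a replicate block gave 2714 and 2555 probe sets, 5 with the interaction and 908 shared genes. No called gene changed direction. Of 182 genes examined 11, all uncalled, changed sign under at least 1 setting, among them Cldn8 (-0.17, and 0.35 with the covariate) and Reg2 (-0.97, and 1.35 with it). Of 145 called genes examined, 101 were called without each of the 12 arrays, and 28 were not called after quantile normalization. Of 132 with a covariate value 44 were not called.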

Other observations

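Zinc-finger genes named Zfp, many of them DNA-binding repressors, were a further group that rose, seen after the values were known. Of 364 probe sets 75 rose (20.6%) and 4 fell (1.1%), against 7.44% and 7.09% of all probe sets. The median log2 fold change was 0.20, and 0.13 in Prlr+/+ islets. Zfp58 went from 5.4, 6.0 and 5.8 in Prlr-/- NP islets to 7.1, 7.0 and 7.1 at P9.5. Zfp931 went from 3.8, 4.7 and 4.5 to 5.6, 5.1 and 6.6. The number that rose was 87 after quantile normalization, 111 after median centring and 18 with the acinar covariate. Members of this family share sequence, so their probe sets are not independent.

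Probe sets that carry the symbols of several genes fell more often than others, with 522 of 1621 (32.2%) against 3.24% of those with 1 symbol. After quantile normalization the number was 475, and in Prlr+/+ islets 329 fell. Keratin-associated protein genes, active in hair, fell in 16 of 44 probe sets and vomeronasal receptor genes in 21 of 175, against 7.09% of all probe sets. After quantile normalization the numbers were 11 and 7.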
